A study of Mus musculus with 4 samples.

Results

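The Rab genes encode small GTPases that mark membrane compartments and direct vesicle traffic between them. A Rab is switched on when an exchange factor loads it with GTP, then recruits effectors such as tethers and motors, and is switched off by a GTPase-activating protein. Lipid tails added at its C terminus hold it on the membrane, and the chaperone GDI takes it off. In male germ cells such traffic is known for its part in building the acrosome from Golgi vesicles and in forming the sperm flagellum.

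Members were the protein-coding genes of the RefSeq gene table whose symbol is Rab followed directly by a digit, which gave 69 of 21883 protein-coding genes. Of these, 59 encode Rab GTPases, and the other 10 carry a Rab's name because their products bind or regulate one: Rab11fip1 to Rab11fip5, Rab3gap1, Rab3gap2, Rab3il1, Rab3ip and Rab5if. The second set is kept apart below as interactor genes. The GTPases were sorted by textbook knowledge into 33 ubiquitous and 19 tissue-restricted genes, with 7 of unsure breadth.

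Accessible chromatin was mapped with Tn5 transposase, which inserts adapters into open DNA (ATAC-seq), in pachytene spermatocytes from mouse testis with the label tag P35. The genotypes are Znhit1_KO and CTRL. ZNHIT1 is a subunit of the SRCAP complex, which exchanges histone H2A for the variant H2A.Z. Each genotype has 2 libraries in the labels, and 1 peak list per genotype was analysed here. Those lists give positions alone, with no height or score, so a peak is present or absent and has a width, and no difference between genotypes has a replicate check or a p-value. The sources used here do not give the deleted allele, any Cre driver, the strain or the number of animals.

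The knockout list held 21004 distinct intervals and the control list 15376, and the sources used here do not give the reads behind them. The part of depth in any difference below was not tested. The cell label was set against marker genes. Of 8 pachytene markers, 7 were open in both lists and 1 in the control list only, against 0 of 6 spermatid and 0 of 6 Sertoli cell markers. Of 7 spermatogonial markers 3 (42.9%) had a peak, 1 in both lists and 1 in each list alone. Among 9 Leydig and other somatic markers 1 had one, in the knockout alone. Over all protein-coding genes 43.0% had a peak, near the spermatogonial share. An open gene end is not a measure of expression, and in bulk nuclei a site open in fewer cells cannot be told apart from one less open in each cell.

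Rab genes had an open gene end more often than protein-coding genes at large, and most had it in both genotypes. A gene-end peak is an interval within 1 kb of either annotated end of the gene. Of the 69 members, 35 (50.7%, Wilson 95% interval 39.2 to 62.2, counting error only) had one in both lists, against a background of 28.6% of all protein-coding genes. In the knockout list alone there were 8 (11.6%, 5.99 to 21.2), beside a background of 9.81%, and in the control list alone 6 (8.70%, 4.05 to 17.7), beside 4.66%. The remaining 20 (29.0%) had none, where the background is 57.0%. Genes with a peak in 1 list alone are called knockout-only or control-only below. Their shares lie near those of all genes. Of the members with any gene-end peak, 71.4% had it in both lists (57.6 to 82.2), and of all genes with one 66.4% did.

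**Figure D1:**
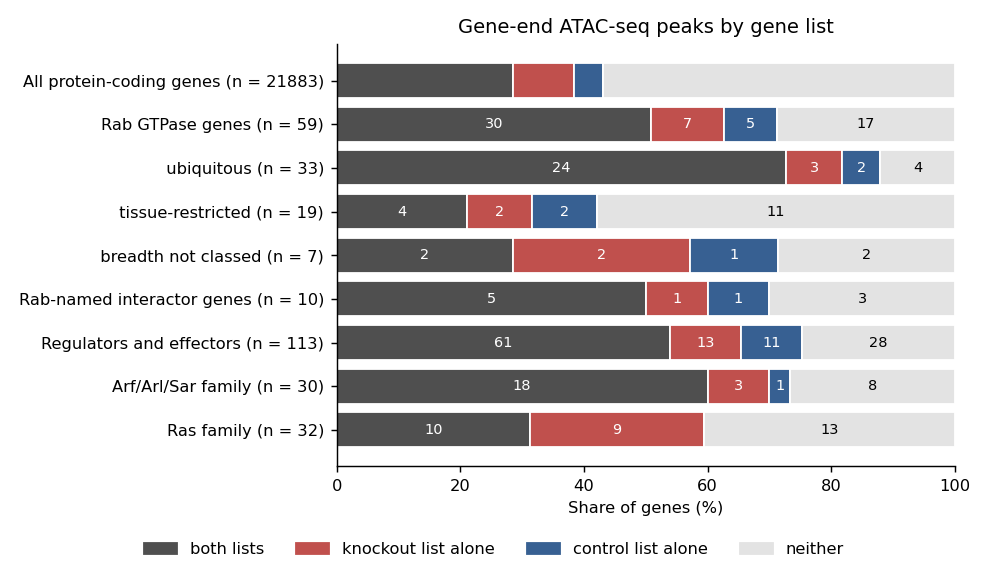
Share of genes (x axis, percent) with a gene-end peak in both lists, in the knockout list alone, in the control list alone or in neither, for each gene list (y axis, n in brackets), with gene numbers in the bars. Ubiquitous Rab genes are mostly in both lists (24 of 33, 72.7%), beside 28.6% of all protein-coding genes. Tissue-restricted ones are in neither in 11 of 19 cases (57.9%), near the 57.0% of all protein-coding genes.

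Ubiquitous and tissue-restricted Rab genes, as listed by hand, differed in their peaks. Of the 33 ubiquitous Rab genes, 24 (72.7%) were open in both genotypes, 3 knockout-only, 2 control-only and 4 in neither. Of the 19 tissue-restricted Rab genes, which serve neurons, secretory cells, pigment cells, epithelia or blood cells, 4 (21.1%) were in both, 2 knockout-only, 2 control-only and 11 in neither. Any gene-end peak was present at 87.9% of the ubiquitous genes (72.7 to 95.2) and 42.1% of the tissue-restricted ones (23.1 to 63.7), and the latter share is close to the 43.0% of all genes. The intervals do not overlap, but they cover counting error only. The sub-lists were drawn up by hand with earlier results of these data known, and no test was run. Of the 4 tissue-restricted genes in both lists, Rab26 and Rab37 have a peak that also lies at the end of a neighbour, Traf7 and Slc9a3r1, and when such shared peaks were left out 2 remained, Rab32 and Rab3d. With intervals listed on at least 2 lines, 17 ubiquitous and 0 tissue-restricted genes were in both lists, and 22 members in all.

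The sequence before the start also differed between these groups, in its content of CpG dinucleotides. A RefSeq promoter window (GRCm38.p6, the assembly of mm10, 250 bases before and 50 after a start) was found for 56 members; where a gene had several, the outermost was used. Median CpG per window was 25 in 30 ubiquitous and 11 in 13 tissue-restricted genes, beside 13 over 17491 promoters. By peak class it was 27 for the 31 members in both lists, 19 for 5 knockout-only, 17 for 4 control-only and 15 for 16 in neither. Over all promoters the same classes had 24, 18, 16 and 5, so members without a peak were richer in CpG than other genes without one. The 200 bases before the start are shown for 8 members, 5′ to 3′ with each CpG in capitals, because 2 pairs of paralogs among them (Rab6a with Rab6b, Rab11a with Rab25) differ in class and the starts of the other 4 lie in a peak of 1 list alone.

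Rab6a: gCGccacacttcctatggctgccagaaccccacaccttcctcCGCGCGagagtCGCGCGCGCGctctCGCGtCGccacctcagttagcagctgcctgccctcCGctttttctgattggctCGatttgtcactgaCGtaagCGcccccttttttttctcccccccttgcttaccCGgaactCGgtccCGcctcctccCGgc
Rab6b: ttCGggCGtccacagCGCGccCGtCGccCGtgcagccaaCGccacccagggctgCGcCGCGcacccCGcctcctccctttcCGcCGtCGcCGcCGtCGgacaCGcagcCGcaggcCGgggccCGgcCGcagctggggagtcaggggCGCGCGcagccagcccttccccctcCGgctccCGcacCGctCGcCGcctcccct
Rab11a: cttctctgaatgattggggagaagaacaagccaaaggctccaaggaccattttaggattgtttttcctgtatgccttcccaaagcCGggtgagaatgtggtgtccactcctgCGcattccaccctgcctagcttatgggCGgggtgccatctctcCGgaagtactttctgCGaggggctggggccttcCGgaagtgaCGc
Rab25: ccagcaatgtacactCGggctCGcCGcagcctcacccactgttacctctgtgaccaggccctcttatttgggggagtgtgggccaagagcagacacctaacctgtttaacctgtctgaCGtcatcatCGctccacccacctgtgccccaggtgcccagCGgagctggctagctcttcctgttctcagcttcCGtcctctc
Rab35: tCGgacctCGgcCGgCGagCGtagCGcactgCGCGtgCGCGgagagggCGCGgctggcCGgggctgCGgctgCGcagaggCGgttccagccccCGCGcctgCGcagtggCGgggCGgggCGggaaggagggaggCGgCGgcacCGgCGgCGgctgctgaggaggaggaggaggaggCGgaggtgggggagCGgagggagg
Rab13: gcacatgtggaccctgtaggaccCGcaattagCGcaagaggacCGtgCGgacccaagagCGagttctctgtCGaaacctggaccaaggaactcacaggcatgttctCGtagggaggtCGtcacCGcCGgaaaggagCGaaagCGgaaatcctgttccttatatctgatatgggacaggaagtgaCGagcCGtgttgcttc
Rab21: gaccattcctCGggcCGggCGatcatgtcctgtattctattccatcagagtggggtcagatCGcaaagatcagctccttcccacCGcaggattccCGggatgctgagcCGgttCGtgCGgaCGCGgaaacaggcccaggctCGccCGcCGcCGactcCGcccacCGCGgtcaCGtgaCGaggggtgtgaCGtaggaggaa
Rab3c: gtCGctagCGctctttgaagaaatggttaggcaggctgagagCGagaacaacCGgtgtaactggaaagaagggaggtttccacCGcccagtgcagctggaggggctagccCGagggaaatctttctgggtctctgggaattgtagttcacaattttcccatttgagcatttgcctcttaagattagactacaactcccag

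These stretches lie in mm10 at chr7:100607386-100607585 (plus strand) for Rab6a, at chr9:103111874-103112073 (plus strand) for Rab6b and at chr9:64737757-64737956 (minus strand) for Rab11a. That of Rab25 is at chr3:88548280-88548479 (minus strand), that of Rab35 at chr5:115631787-115631986 (plus strand) and that of Rab13 at chr3:90213515-90213714 (plus strand). Rab21 and Rab3c have theirs at chr10:115315592-115315791 (minus strand) and chr13:110280207-110280406 (minus strand). The stretch of Rab6b, a neuronal paralog of the Golgi gene Rab6a, held 31 CpG against 20 in Rab6a, yet Rab6a had wide peaks in both lists and Rab6b none in either. Rab11a and its epithelial relative Rab25 held 7 each, and only Rab11a had peaks, in both lists. In these stretches the number of CpG did not follow the peak class in either pair. In the promoter window used for the medians above, Rab11a held 16 CpG and Rab25 held 9. There the gene with peaks had more. Rab6a held 29 in that window and Rab6b 42, so the Rab6 pair did not follow its class there either. The stretch of Rab35, in the knockout alone, held 29.

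Of 10 short motifs searched on both strands in the 300-base windows, CCAAT and GGGCGG were the commonest. CCAAT was in 26 of 56 member promoters (46.4%) and 39.2% of all; among members it was in 17 of 30 ubiquitous (56.7%), 2 of 13 tissue-restricted (15.4%), 4 of 5 unclassed and 3 of 8 interactor promoters. GGGCGG was in 41 of 56 member promoters (73.2%) and 46.3% of all. Its share also varied with peak class: 80.6% of members in both lists had it, beside 71.2% of all promoters of that class. In neither list the shares were 56.3% of 16 members and 29.7% of all. The cyclic AMP response element TGACGTCA was in 3 members (5.36%, all promoters 2.33%), and its shorter form TGACGT, which includes those, in 10 (17.9%, 8.71%). By class, TGACGT was in 19.4% of members in both lists, beside 15.1% of all promoters of that class. In neither list it was in 4 of 16 members (25%), beside 4.86%. The E-box CACGTG was in 6 members (10.7%, 7.91%), GCATGC in 3 (5.36%, 8.22%) and the ETS motif CCGGAAG in 8 (14.3%, 11.9%). The MYB motif AACTGNC was in 6 (10.7%, 11.9%), the YY1 motif AAGATGGCG in 4 (7.14%, 1.92%) and TATAAA in 5 (8.93%, 13.3%). A match is a string of letters and does not show binding.

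**Figure D2:**
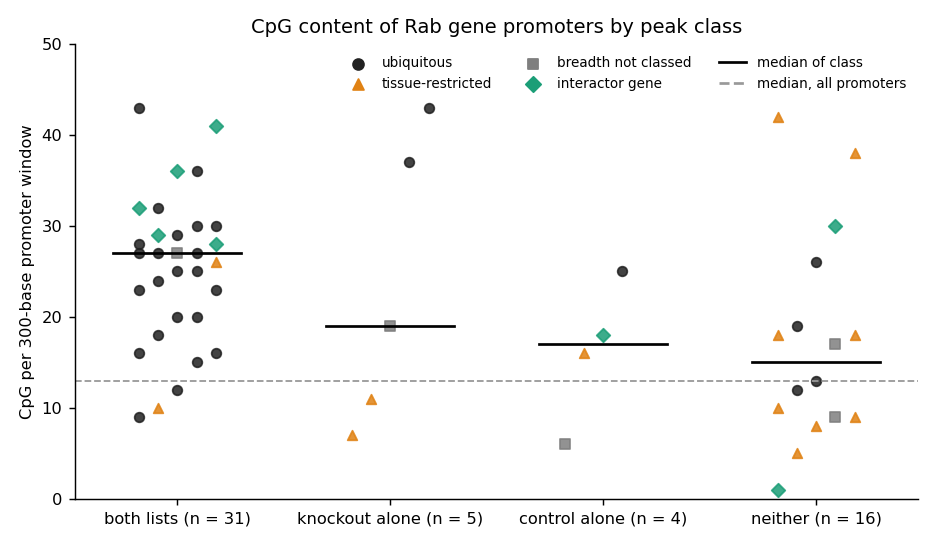
CpG number in the 300-base RefSeq promoter window of 56 members (y axis) by peak class (x axis), with 1 point per gene, shaped by breadth, and a black line at each class median. The median falls from 27 in both lists to 15 in neither, while Rab6b (42) and Rab15 (38) have many CpG and no peak.

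Rab genes of the endoplasmic reticulum and Golgi were open in both genotypes in 8 of 11 cases (72.7%), beside 28.6% of all protein-coding genes. Rab1a, which drives transport from the endoplasmic reticulum to the Golgi, had a 1162 bp knockout peak and a 1107 bp control peak. Rab1b had 531 and 450 bp, at a site shared with the end of Klc2. The widest knockout peak of the family lay at Rab6a, which governs traffic within and from the Golgi: a knockout peak of 1619 bp (chromosome 7, 100607195 to 100608813) and a control peak of 1443 bp (100607216 to 100608658), also at the end of Mrpl48. Rab18, of lipid droplets and the endoplasmic reticulum, had 1052 and 754 bp, Rab33b, an autophagy Rab of the Golgi, 891 and 727 bp, Rab30 603 and 572 bp, and Rab43 528 and 490 bp. All 7 of these were wider in the knockout.

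The Rab2 pair differed in class. Rab2b had 1061 bp in knockout cells and 973 bp in control cells, at a site shared with Tox4. Rab2a, which acts between the endoplasmic reticulum and the Golgi and in autophagy, had an 872 bp peak in the knockout alone (chromosome 4, 8535439 to 8536310), and the nearest control interval lay 52556 bp away, inside the gene. This was the widest gene-end peak of a member in 1 list alone. Rab33a, an X-linked gene of brain and immune cells, had a 265 bp peak in the knockout alone (chromosome X, 48513338 to 48513602). It lay at the end of Aifm1 and 5683 bp before the RefSeq start of Rab33a.

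Beside 28.6% of all protein-coding genes, 5 of 8 early endosome genes (62.5%) were in both lists. The 3 Rab5 genes, which control fusion of early endosomes, were all there. Rab5a had a knockout peak of 1383 bp (chromosome 17, 53478656 to 53480038) and a control peak of 997 bp (53478863 to 53479859). Rab5b went the other way, with 922 and 1110 bp, at a site shared with Pmel, and Rab5c had 662 and 325 bp. Rab22a had 1092 bp in knockout cells and 1289 bp in control cells, and the control list had 2 gene-end intervals against 1 in the knockout. Rab31, its close relative, had none within 1 kb, the nearest being a control interval 3999 bp from an end.

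The Rab4 genes, of fast recycling, differed in class. Rab4b had a knockout peak of 978 bp (chromosome 7, 27178302 to 27179279) and a control peak of 336 bp (27178822 to 27179157), a log2 ratio of 1.54, at a site shared with Mia, which was the highest ratio among the members when intervals were taken singly. The control list had a second interval of 229 bp close by. With intervals within 200 bp of each other joined, the control site was 674 bp and the log2 ratio 0.54. Rab4a had a 306 bp peak in the control alone (chromosome 8, 123806206 to 123806511), which lay 360 bp inside the gene's start coordinate and was listed on 1 line.

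Rab21, of early endosomes and integrin traffic, was counted in neither list but had a knockout peak over its start. The interval spanned 943 bp (chromosome 10, 115315115 to 115316057) and held the RefSeq start, whereas the annotated gene end lies 1362 bp away from it, outside the window. The nearest control interval was 46480 bp from the start. Rab21 was therefore in the knockout alone when only RefSeq starts were used, and with a 3 kb window.

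Recycling endosome genes of broad expression were open in both lists, apart from Rab35. Rab11a, the main Rab of slow recycling, had 1151 bp in knockout cells and 1004 bp in control cells, Rab11b 1063 and 1047 bp, and Rab14 1180 and 1052 bp. Rab35, of fast recycling and cytokinesis, had 522 bp in the knockout alone (chromosome 5, 115631751 to 115632272), over its RefSeq start. The nearest control interval, 256 bp wide, lay 10847 bp away inside the gene. The tissue-restricted Rab15, Rab17 and Rab25 had none in either list.

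Late endosome, lysosome and autophagy genes divided evenly, 5 in both lists and 5 in neither, with none in 1 list alone. Over all protein-coding genes 28.6% were in both lists and 57.0% in neither. Rab7, which drives fusion with lysosomes, had a knockout peak of 713 bp (chromosome 6, 88044847 to 88045559) and a control peak of 986 bp (88044764 to 88045749), a log2 ratio of -0.47. Rab24, an autophagy Rab, had 694 and 372 bp at a site shared with Prelid1, and Rab39 788 and 705 bp. Rab32, of melanosomes and other lysosome-related organelles, had a knockout peak of 324 bp (chromosome 10, 10558062 to 10558385) and a control peak of 638 bp (10557981 to 10558618), and its log2 ratio of -0.98 was the lowest among the members. Its paralog Rab38 had its nearest interval of either list 300225 bp from an end. Rab7b, Rab9b, Rab29 and Rab39b also had none in the window.

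Rab9, which returns receptors from late endosomes to the Golgi, is X-linked and had a peak in both lists, 454 bp in knockout cells and 366 bp in control cells. The knockout interval held the RefSeq start, and the control interval began 74 bp after it. Of the 4 X-linked members, Rab9 was in both lists, Rab33a in the knockout alone and Rab9b and Rab39b in neither. Over the 966 protein-coding genes of the X chromosome, which is silenced in pachytene spermatocytes, 10.4% had any gene-end peak.

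Genes of polarised transport and the cilium were in both lists in 5 of 8 cases (62.5%), beside 28.6% of all protein-coding genes. Rab28, whose product works in cilia and photoreceptors, had the widest control peak of the family, 1757 bp (chromosome 5, 41706981 to 41708737), and 1601 bp in the knockout (41707025 to 41708625). Rab10, of exocytosis to the cell surface, had a knockout peak of 1255 bp (chromosome 12, 3309407 to 3310661) and a control peak of 1542 bp (3309125 to 3310666). Rab8a and Rab8b, which carry membrane to the cilium, had 982 and 1038 bp and 660 and 611 bp. Rab23, a regulator of Hedgehog signalling, had 735 bp in knockout cells and 489 bp in control cells.

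Rab12 and Rab13 lay in opposite lists. Rab12 had 2 knockout intervals, the wider of 471 bp (chromosome 17, 66519069 to 66519539), which joined into a site of 915 bp, and the nearest control interval was 151923 bp away. Neither interval held the RefSeq start, the nearer one ending 30 bp from it. Rab13, a Rab of cell junctions, had 518 bp in the control alone (chromosome 3, 90213372 to 90213889), over its RefSeq start and also at the end of Rps27. The nearest knockout interval was 17670 bp away. Rab34, which acts in forming the cilium, had none in either window, and control and knockout intervals lay 2607 and 4664 bp from its ends.

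Regulated secretion is served mostly by tissue-restricted Rabs. Of its 9 genes, 4 (44.4%, 18.9 to 73.3) had no peak, beside 57.0% of all protein-coding genes. Of the Rab3 genes, which act in exocytosis at synapses and in secretory cells, Rab3d alone was in both lists, with 413 bp in knockout cells and 523 bp in control cells, over its RefSeq start. Rab3c had 258 bp in the knockout alone (chromosome 13, 110280010 to 110280267), over its RefSeq start but 729 bp from the annotated gene end, and Rab3a and Rab3b had none. Rab3a had a knockout interval 2030 bp and a control interval 2247 bp from an end, outside the 1 kb window. Rab27a and Rab27b, of melanosome and granule release, had none. Rab26 had 673 and 639 bp and Rab37 708 bp (chromosome 11, 115162852 to 115163559) and 293 bp (115163106 to 115163398), both at a neighbour's end. Rab44 had 361 bp in the control alone (chromosome 17, 29148659 to 29149019).

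Of the 6 GTPase genes with other roles, 1 (16.7%) was in both lists, beside 28.6% of all protein-coding genes. Rab40c, which joins a ubiquitin ligase through a SOCS box, had a knockout peak of 1188 bp (chromosome 17, 25919370 to 25920557) and a control peak of 703 bp (25919652 to 25920354). Its paralog Rab40b had 387 bp in the knockout alone (chromosome 11, 121388071 to 121388457), with a control interval 1316 bp from an end of the gene. Rab36 had 758 bp in the knockout alone (chromosome 10, 75036845 to 75037602). The control alone had Rab20, 498 bp (chromosome 8, 11479389 to 11479886), whose peak lay 749 bp before the RefSeq start, and Rab42, 281 bp (chromosome 4, 132301189 to 132301469), which lay 751 bp from an end and 1887 bp past the RefSeq start. Both left the window when it was narrowed to 500 bp. Rab19 had none.

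Of the 10 interactor genes, 5 were in both lists, 1 in each list alone and 3 in neither. The shares of all protein-coding genes in both lists and in neither were 28.6% and 57.0%. The 2 subunits of the Rab3 GTPase-activating complex, which also loads Rab18 with GTP, were found alone or wider in the control list. Rab3gap1 had 641 bp in the control alone (chromosome 1, 127868544 to 127869184), listed on 1 line. Rab3gap2 had a knockout peak of 593 bp (chromosome 1, 185203838 to 185204430) and a control peak of 1138 bp (185203654 to 185204791). Rab3ip, the exchange factor Rabin8 that activates Rab8 at the cilium, had 799 and 1014 bp.

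Rab11 adaptors were mixed. Rab11fip5 had a knockout peak of 1171 bp (chromosome 6, 85374020 to 85375190) and a control peak of 489 bp (85374384 to 85374872), a log2 ratio of 1.26. Rab11fip2 had 1085 and 1115 bp, and Rab11fip1 301 bp in the knockout alone (chromosome 8, 27174549 to 27174849). Rab11fip3 and Rab11fip4 had none at an end, but Rab11fip4 had an interval of each list inside the gene that overlapped, 318 bp in knockout cells and 290 bp in control cells. Rab5if had 794 and 801 bp, and Rab3il1 had none.

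Where both lists had a peak, it was more often the knockout one that was wider. Over the 35 members in both lists the log2 ratio of the widths, knockout over control, had a median of 0.11 (quartiles -0.11 and 0.39, 95% interval from order statistics -0.01 to 0.24), beside 0.04 over 6252 genes in both lists. The knockout peak was the wider at 23 of 35 members (65.7%) and at 53.2% of those genes. Among the 30 Rab GTPase genes it was the wider at 22, with a median log2 ratio of 0.14. Among the 5 interactor genes it was the wider at 1, with a median of -0.04. The knockout peak was over 1.5 times wider at 7 members (20%), beside a background of 17.1%: Rab4b, Rab37, Rab11fip5, Rab5c, Rab24, Rab40c and Rab23. With intervals within 200 bp joined, Rab4b had a log2 ratio of 0.54 and was no longer among them. The control peak was over 1.5 times wider at 2 (5.71%), Rab32 and Rab3gap2, beside a background of 11.5%. Median widths over all members with a peak were 788 bp in 43 knockout genes and 703 bp in 41 control genes, beside 674 and 670 bp over all genes. Spearman's rank correlation between the 2 widths over the 35 members was 0.63, given as a description, since both lists are read at the same genes.

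**Figure D3:**
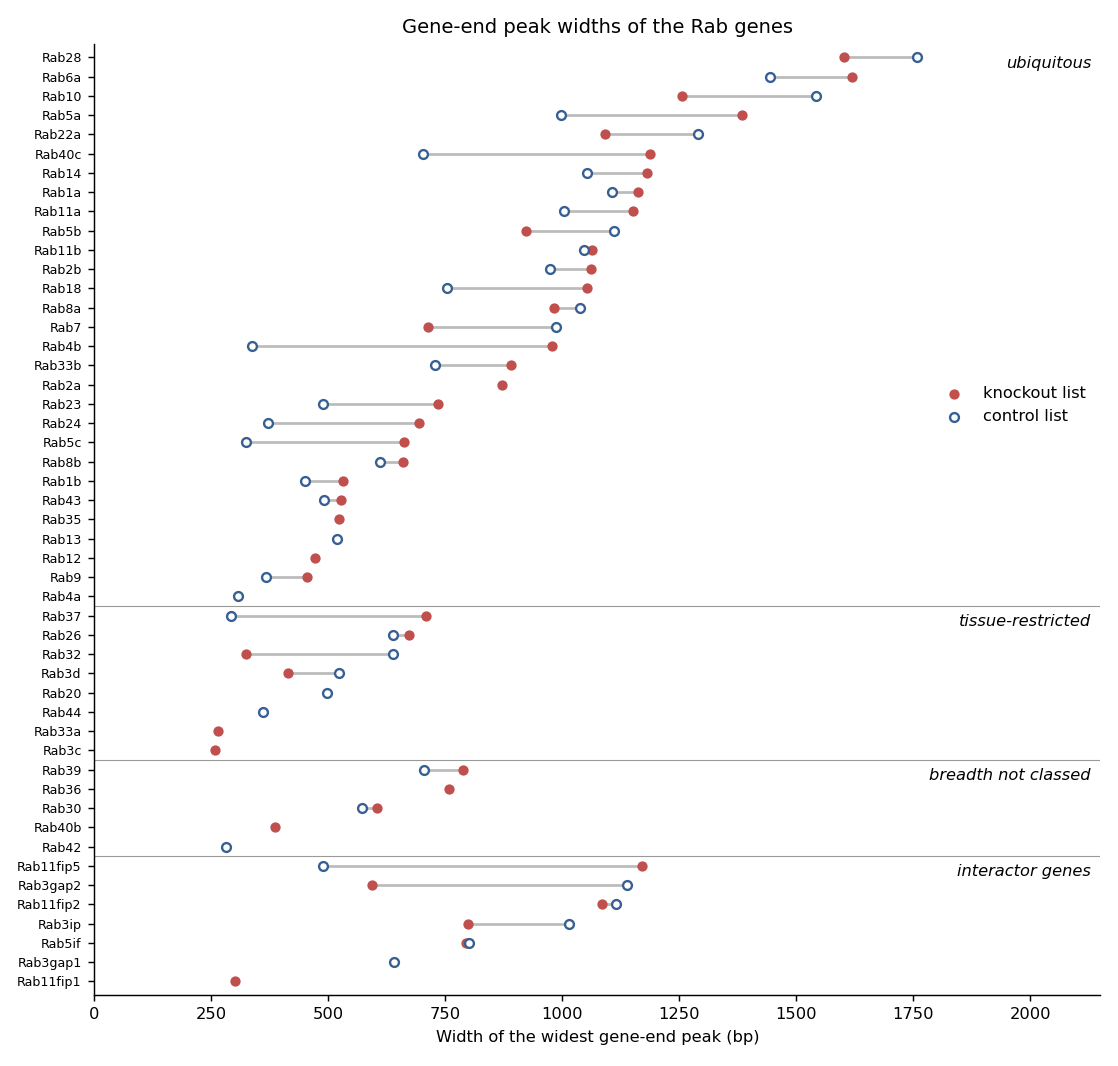
Width of the widest gene-end peak (x axis, bp) of each of the 49 members with one (y axis), filled for the knockout list and open for the control list, with a grey line joining genes in both. Ubiquitous genes reach 1619 and 1757 bp, and no tissue-restricted gene exceeds 708 bp.

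Peaks found in 1 list alone were narrow. The 8 members in the knockout alone had a median width of 429 bp (258 to 872), against 891 bp in the knockout list for members in both, and the 6 control-only 429.5 bp (281 to 641), against 754 bp. Over all genes these medians were 421 and 758 bp for the knockout and 436 and 714 bp for the control. Of the 14 members in 1 list alone, 5 had an interval that was listed on at least 2 lines: Rab2a, Rab12, Rab35 and Rab36 in the knockout and Rab13 in the control. The median over ubiquitous genes was 978 bp for 27 knockout peaks and 863.5 bp for 26 control peaks. For tissue-restricted genes it was 368.5 and 510.5 bp, over 6 genes in each list that are not all the same genes. At the 4 tissue-restricted genes in both lists the medians were 543 and 580.5 bp, with 2 wider in the knockout and 2 in the control.

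Where a RefSeq start was known, member peaks lay over it. The widest knockout peak held a start at 34 of 36 such members and the widest control peak at 32 of 35. Peak centres lay at a median of 54.5 bp after the start in the knockout and 35 bp after it in the control. The knockout exceptions were Rab12 and Rab33a, and the control ones Rab9, Rab20 and Rab42. At all 35 members in both lists the widest knockout and control peaks overlapped, at 29 of them by at least 50% of both. No shares over all genes stand beside these positions and overlaps, so they do not set Rab genes apart. Counting only peaks that held a start, 30 of 56 members were in both lists, 5 knockout-only, 2 control-only and 19 in neither. The 5 were Rab3c, Rab9, Rab21, Rab35 and Rab40b, and of these Rab9 and Rab21 were in another class by gene ends.

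**Figure D4:**
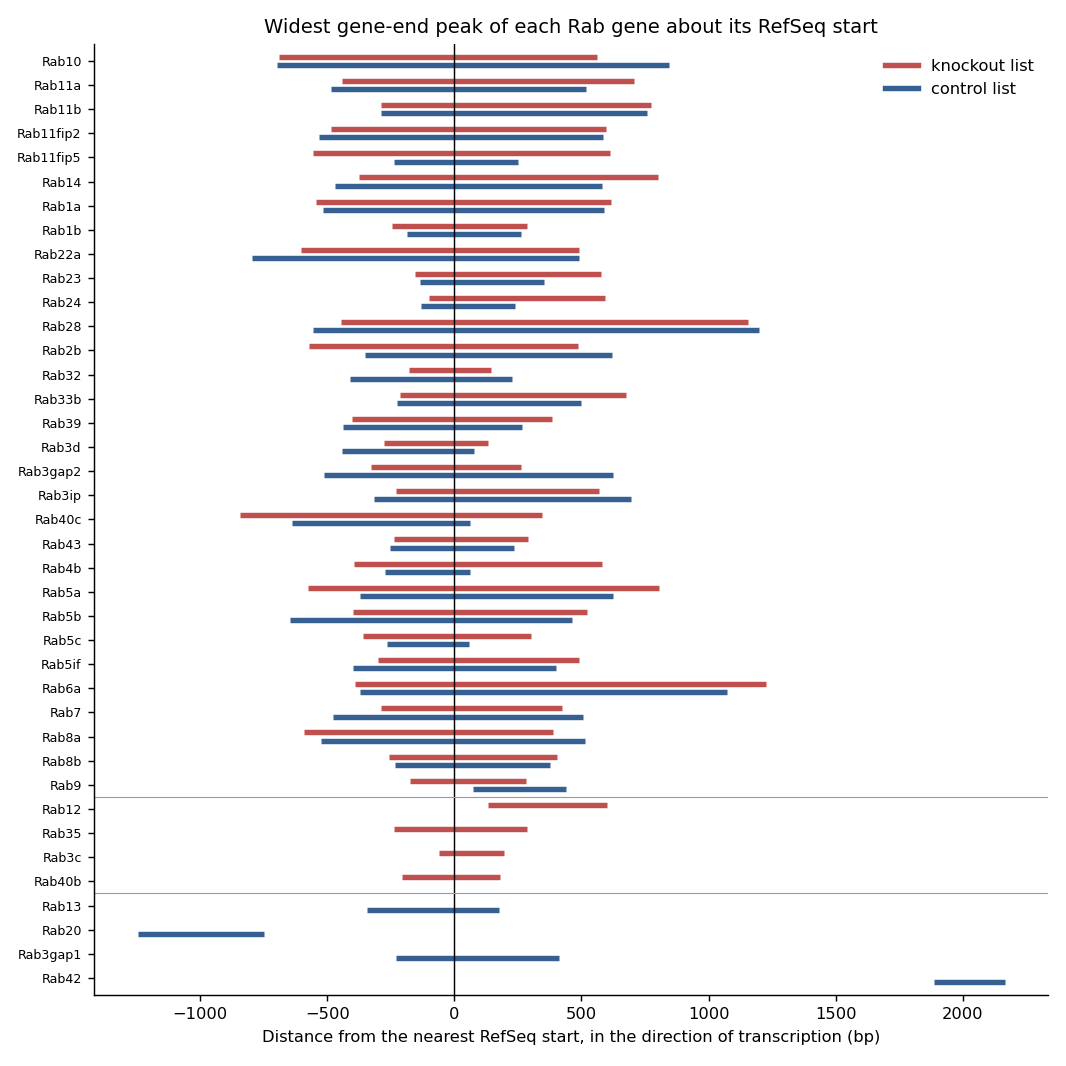
Extent of the widest gene-end peak in the knockout and control lists (bars) about the nearest RefSeq start (x axis, bp in the direction of transcription) for 39 members, in both lists (top), the knockout alone (middle) and the control alone (bottom). Nearly all bars cross the start, and those of Rab12, Rab20, Rab42 and the control bar of Rab9 do not.

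Away from the ends, member genes held 24 knockout and 18 control intervals, in 16 and 14 genes, and 2 of each list overlapped the other. Their median widths were 335 and 345 bp. The same counts over all genes are not given here, so the low overlap is not shown to be particular to Rab genes. One overlapping site was that of Rab11fip4, and the second lay in Rab3gap2. Rab6b, with no gene-end peak, held 5 knockout and 2 control intervals inside the gene. None of these overlapped, and the nearest pair was 261 bp apart.

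Of 25 pairs of paralogs over 36 genes, which share members, 8 (32%) had the same class, beside 35.2% of all 1711 pairs of Rab GTPase genes. Of the 8, there were 6 in both lists (Rab1a with Rab1b, Rab8a with Rab8b, Rab11a with Rab11b, and the Rab5 genes) and 2 in neither (Rab3a with Rab3b, Rab27a with Rab27b). Rab6a, Rab7, Rab9, Rab22a, Rab32 and Rab39 were in both lists, while their paralogs Rab6b, Rab7b, Rab9b, Rab31, Rab38 and Rab39b were in neither.

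Regulators and effectors of Rab GTPases had a gene-end peak in 75.2% of cases (66.5 to 82.3), beside 71.2% for the GTPases. Of 113 such genes, 61 (54.0%) were open in both genotypes, 13 (11.5%) knockout-only, 11 (9.73%) control-only and 28 in neither, beside 28.6%, 9.81%, 4.66% and 57.0% of all protein-coding genes. All 14 subunit genes of the TRAPP complexes, which load Rab1 and Rab11 with GTP, had a peak, 12 in both lists and 2, Trappc6b (562 bp) and Trappc1 (384 bp), in the knockout alone. Of 28 other exchange factor genes, 13 were in both, 5 knockout-only, led by Hps4 (872 bp, shared with Srrd), Dennd1a (768 bp) and Dennd1b (767 bp), and 3 control-only, led by Als2cl (623 bp, shared with Tmie). Dennd1a, Dennd1b and Dennd1c encode exchange factors for Rab35, and Dennd1c was in neither list. The 33 GTPase-activating protein genes had 20 in both, Tbc1d22a (646 bp) in the knockout alone and 5 control-only, the widest at Tbc1d4 (736 bp), a brake on Rab10 in glucose transport.

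Of 30 effector genes, 11 were open in both genotypes, 5 knockout-only, led by the Rab7 effectors Plekhm1 (633 bp) and Rilp (630 bp), and 3 control-only, led by Bicd1 (637 bp), a dynein adaptor of Rab6. Of 8 genes for GDI, prenylation and related factors, 5 were in both, including Gdi2 (988 bp in the knockout, 900 bp in the control) and both subunits of the geranylgeranyl transferase, Rabggta and Rabggtb.

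Other small GTPase families gave a yardstick. Any gene-end peak was present at 71.2% of Rab GTPase genes (58.6 to 81.2), 73.3% of 30 Arf, Arl and Sar genes (55.6 to 85.8) and 59.4% of 32 Ras genes (42.3 to 74.5). These intervals overlap. Of the Arf, Arl and Sar genes 3 were knockout-only and 1 control-only, of the Ras genes 9 and 0, and of the 59 Rab GTPase genes 7 and 5. The difference between families was not tested.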

How the data were processed

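ATAC-seq libraries of pachytene spermatocytes were labelled Znhit1_KO or CTRL, 2 each. The authors deposited peak lists of start and end positions, and 2 were used here, 1 per genotype; the other 2 libraries were not analysed here. The sources used here do not say whether a list pools replicates, how deep it is or which calling threshold was used. MACS2 2.2.4, Picard 2.20.7, Bowtie2 2.3.4.3 and cutadapt 2.5, with the build mm10, are listed per the submitters' processing notes.

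Repeated lines were counted as 1 interval. Genes came from a RefSeq table of GRCm38.p6, promoter sequences and strand from a RefSeq promoter table of the same build, which had 56 of the 69 members. Coordinates are 1-based. All 243 names on the hand-written gene lists matched the table. Work was done in Python 3.11.15 with numpy 2.4.6, pandas 2.3.3, scipy 1.17.1 and matplotlib 3.10.9. Class assignment was tested on simulated intervals at 400 genes, with edges 1 bp inside and outside the window, and 400 were recovered. No test between genotypes was run, and Wilson intervals cover counting error only. Full positions are given for every member in 1 list alone, the 5 members in both lists with the widest knockout peak and the 3 highest and 3 lowest width ratios; from the partner lists, the widest peaks in 1 list alone. Rab21 and other singled-out sites were chosen after their values were seen. Members and lists were chosen with earlier results of these data known. Alternatives were other windows, joined, repeated, wide or equal numbers of intervals, 5′ ends, unshared peaks and whole genes. Protein sequences were not used here. Some items on the comparison lists are not reported here.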

Additional observations from a re-analysis of the deposited data

How the results depend on the processing

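The class counts of the members, the Rab GTPase genes and the ubiquitous and tissue-restricted genes, and the members' width medians, were recomputed under 10 other settings, 9 of them planned and 1, that a peak must hold the RefSeq start, chosen after seeing the data. Counts for roles, interactors, partners and other families were not recomputed. Of 192 recomputed values 160 stayed within their limits and 32 moved. All medians of width were among the former, but their order was not kept throughout. The main medians were 788 bp for knockout peaks and 703 bp for control peaks. With intervals listed on at least 2 lines they were 950 bp in 32 knockout genes and 997 bp in 27 control genes. The median log2 width ratio at members in both lists was then 0.07. With repeated lines required (at least 2), 22 members were in both lists and 32 in neither, ubiquitous genes had 7 knockout-only and 7 in neither, and tissue-restricted genes 0 in both and 1 knockout-only. Using 5′ ends only, 5 members were in the knockout alone and 3 control-only; ubiquitous genes had 1 control-only, and tissue-restricted genes 2 in both and 1 in each list alone. With the start held by the peak, 5 members were in the knockout alone and 2 control-only, ubiquitous genes had 1 control-only, and tissue-restricted genes 2 in both, 1 knockout-only and 0 control-only. These last 2 settings cover 56 members. Over whole genes, 13 members were in neither list, ubiquitous genes had 1 control-only, and tissue-restricted genes 4 knockout-only and 7 in neither. Without peaks shared with another gene, 10 ubiquitous genes were in neither list and 2 tissue-restricted genes in both. A 500 bp window left 1 tissue-restricted gene in the control alone, intervals of at least 300 bp left 1 knockout-only, and a 3 kb window left 2 ubiquitous genes in neither. The cause of these moves was not tested. No paired analysis was possible because each genotype had 1 peak list, and for the same reason no replicate could be left out. The depth behind the lists is unknown, so an absent peak may be a site below the calling threshold.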
